A study of Homo sapiens with 6 samples.

Results

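CCN1 to CCN6, the genes of the CCN family of matricellular proteins, and ANKRD1, which encodes a cardiac-type ankyrin repeat protein, were followed in MDA-MB-231 cells after TAZ knockdown. MDA-MB-231 is a human breast cancer cell line of mesenchymal character. The 7 genes were taken by symbol from the 46427 genes of the processed GRCh38 gene table, and all 7 were listed there. The study compared 3 cell preparations treated with control-siRNA (genotype label WT) with 3 treated with TAZ-siRNA (genotype label TAZ knockdown), all transfected in low glucose medium with serum and detached with trypsin before lysis. The siRNA was directed against WWTR1, the gene for TAZ, and the control-siRNA is not described further in the labels. With 1 siRNA reagent against TAZ, effects of losing TAZ and other effects of that reagent cannot be told apart. The question is how the genes most often used as readouts of TAZ, and their relatives, responded.

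TAZ and its paralog YAP are coactivators that are kept out of the nucleus by the kinases of the Hippo pathway. They do not bind DNA themselves, and in the nucleus they act largely through the TEAD transcription factors. CCN1 (also called CYR61), CCN2 (also called CTGF) and ANKRD1 (also called CARP) are the classic TEAD targets of both coactivators. CCN proteins are secreted into the matrix, where they bind integrins and heparan sulfate proteoglycans and affect adhesion and migration. ANKRD1 is an intracellular protein best known from stressed heart muscle, where it is found at the sarcomere and in the nucleus.

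The bases before the starts of CCN2 and ANKRD1 are shown because both genes fell with TAZ-siRNA and both windows hold the letters of the core TEAD motif. The entry of CCN6 was searched as well, but its bases are not shown, since it lies within the span the deposited table gives that gene. The RefSeq promoter table for GRCh38.p14 gave an entry for 3 of the 7 genes, and CCN1, CCN3, CCN4 and CCN5 have none in it. Each sequence covers the 250 bases before the start, 5′ to 3′ on the strand of the gene, and the capitals mark GGAATG or its reverse complement CATTCC. The windows are chr6:131951373-131951622 (minus strand) for CCN2 and chr10:90921088-90921337 (minus strand) for ANKRD1.
CCN2: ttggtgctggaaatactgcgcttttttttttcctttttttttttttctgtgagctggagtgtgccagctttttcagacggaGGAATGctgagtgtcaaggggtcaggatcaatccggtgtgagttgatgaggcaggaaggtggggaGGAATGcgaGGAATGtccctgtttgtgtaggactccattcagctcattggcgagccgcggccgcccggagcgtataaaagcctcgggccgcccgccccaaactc
ANKRD1: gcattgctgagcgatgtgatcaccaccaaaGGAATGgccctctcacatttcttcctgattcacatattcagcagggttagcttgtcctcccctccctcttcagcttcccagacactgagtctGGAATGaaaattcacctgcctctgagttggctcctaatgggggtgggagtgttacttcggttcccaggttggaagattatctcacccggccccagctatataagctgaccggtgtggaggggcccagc
GGAATG occurred 3 times before CCN2, beginning 169, 104 and 95 bases before the start. It occurred 2 times before ANKRD1, beginning 220 and 128 bases before the start. The window of CCN6, which had 0 counts in every library, held it 1 time too, 128 bases before the start in that table. Of the 35116 windows of the same length in the table, 11.9% held this motif on either strand at least once, 0.94% at least 2 times and 0.0826% at least 3 times. The AP-1 motif TGANTCA, searched on both strands, was found 1 time before ANKRD1 (as TGATTCA, beginning 195 bases before the start), where 6.57% of all windows held it, and it was not in the windows of CCN2 and CCN6. The CArG box was in none of the 3 windows, against 1.16% of all windows. No AP-1 match overlapped a TEAD match. These are matches of letters and not measured binding, and since CCN2 and ANKRD1 are known TEAD targets the shares over all windows are given as a description.

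Total counts were between 48307548 and 71749634 per library. WWTR1 mRNA was 191 ± 1.46 CPM in the control group (SD, n = 3) against 16.5 ± 1.21 CPM after TAZ-siRNA (SD, n = 3). CPM are counts scaled to the normalized library size. TAZ-siRNA replicate 3 lay farther from the other libraries of its group than any other library did (SD of the log2 difference over genes 0.22, against 0.138 to 0.185 for the others), so the change of each of the 6 genes tested is also given without it, and genes of other lists where leaving it out changed their call. The markers of MDA-MB-231 cells were abundant, with VIM at 3574 ± 139 CPM (SD, n = 3) in the control-siRNA libraries, and of the 6 listed CAV1 and AXL fell (log2 fold change -0.60 and -0.35) and PLAUR rose (0.42). In contrast, CDH1 and the hormone receptor genes ESR1 and PGR were near 0 (at most 36 counts in any library). Of the other luminal markers, KRT19 was present and rose (63.4 to 81.7 CPM, adjusted p = 0.0012 by edgeR), GATA3 fell (8.67 to 6.23 CPM, adjusted p = 0.0081), and TFF1 and EPCAM were low and did not pass the test. The fibroblast gene DCN and the muscle genes MYH6, MYH7 and TNNT2 had no counts in any library, and COL1A2 and LUM had at most 4. Other markers of these cell types were present at low levels and changed, with PDGFRB going from 13.5 to 18.2 CPM, COL1A1 from 7.21 to 9.69 CPM and DES from 3.79 to 2.24 CPM. The sources call them 3 cell preparations per group and do not say whether these were separate cultures, so the p-values measure the spread between these preparations, which may be technical. In these bulk samples, fewer cells that express a gene and less RNA per cell cannot be told apart.

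The 7 genes spanned a wide range of levels. In the deposited TPM, which are scaled for transcript length and so allow genes to be compared, the control-siRNA order was CCN1, CCN2, ANKRD1, CCN3, CCN5, CCN4 and CCN6. The mean levels were 1352 ± 137 TPM for CCN1, 744 ± 96.2 for CCN2, 192 ± 21.1 for ANKRD1 and 13.8 ± 0.308 for CCN3 (SD, n = 3 for each). CCN5 was at 0.917 ± 0.197 TPM and CCN4 at 0.0597 ± 0.0069 TPM (SD, n = 3 for each). The libraries of any 2 neighbours in this order did not overlap. CCN1 ranked between 93 and 121 of all genes by TPM in the control-siRNA libraries and CCN2 between 144 and 192, so both were among the abundant mRNAs of these cells.

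**Figure D1:**
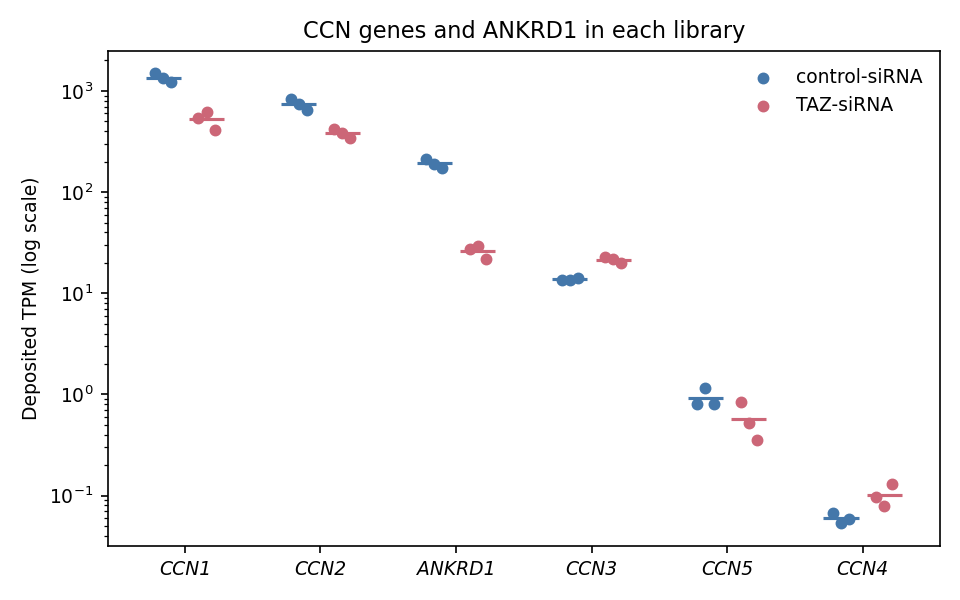
Deposited TPM (log scale) of the CCN genes and ANKRD1, with 1 point per library, a line at the mean of each group and the groups side by side. CCN6, at 0 in every library, is not drawn. The points of CCN1, CCN2 and ANKRD1 are lower in all 3 TAZ-siRNA libraries, those of CCN3 are higher, and those of CCN5 overlap.

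With TAZ-siRNA, CCN1, CCN2 and ANKRD1 fell, CCN3 rose, CCN4 and CCN5 did not pass the test, and CCN6 could not be tested. By edgeR's quasi-likelihood test at an adjusted p under 0.05, 3 of the 6 genes tested were lower, against 10.2% of the 16966 genes tested, and 1 was higher, against 11.9%. Calls in either direction made up 66.7% of the 6 genes and 22.1% of all genes tested. The median log2 fold change of the 6 genes was -0.83, beside -0.0054 over all genes tested. The groups did not overlap in CCN1, CCN2, CCN3 and ANKRD1, where 39.6% of all genes tested did not. They did not overlap in CCN4 either, but the filter kept CCN4 only through the TAZ-siRNA libraries. CCN1, CCN2 and ANKRD1 were also listed by the study as changed in these same libraries, so their direction is not independent evidence. The same holds for several genes named below. Among them, the study listed TGFB2, AXL and MYPN as lower and ITGA5, ITGA6, ITGB5, ITGAV, ITGB1, ITGB3 and FN1 as higher.

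**Figure D2:**
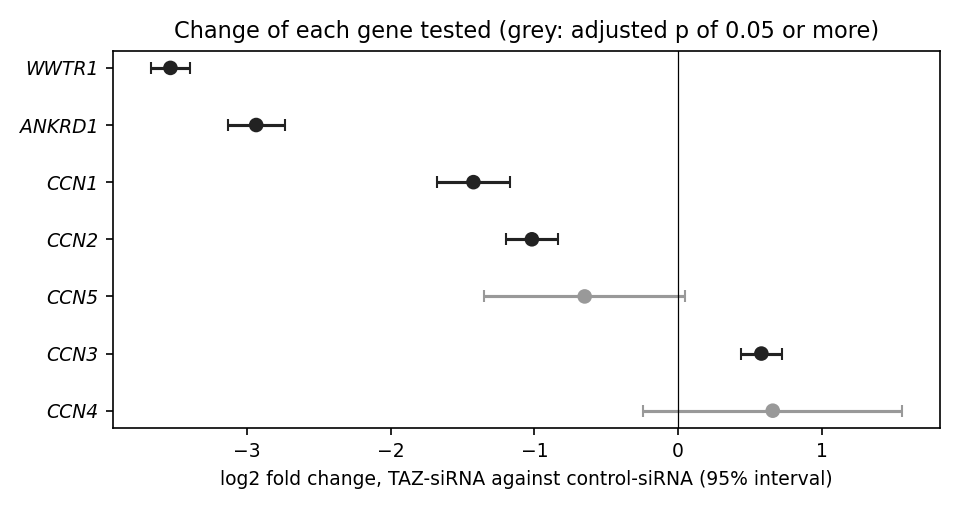
Log2 fold change of TAZ-siRNA against control-siRNA for each gene tested, with its 95% interval from edgeR and WWTR1 for reference. The intervals of ANKRD1, CCN1 and CCN2 lie below 0 and that of CCN3 above it, whereas those of CCN4 and CCN5, in grey, cross 0.

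ANKRD1 (NCBI gene 27063) lies on chromosome 10 from 90912096 to 90921087. Its level was 174, 156 and 145 CPM in control-siRNA replicates 1, 2 and 3 and 21.0, 22.8 and 18.3 CPM in TAZ-siRNA replicates 1, 2 and 3. All TAZ-siRNA libraries were far below all control-siRNA libraries. The mean fell to 13.1% of control-siRNA, a log2 fold change of -2.93 (standard error 0.09, 95% interval -3.13 to -2.74, adjusted p = 6.1e-08 by edgeR). Only 3 of the 13591 genes averaging at least 1 CPM fell further, WWTR1 among them. By TPM, ANKRD1 went from a rank of 665 to 866 in the control-siRNA libraries to a rank of 5332 to 6118. Without TAZ-siRNA replicate 3 the log2 fold change was -2.85.

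CCN1 (NCBI gene 3491), which encodes an angiogenic matrix protein induced early by serum, lies on chromosome 1 from 85580761 to 85583950. It was at 1546, 1388 and 1315 CPM in the control-siRNA libraries and at 528, 616 and 440 CPM in the TAZ-siRNA libraries, in the order of the replicate numbers. The groups were well apart, and the spread was wider with TAZ-siRNA (coefficient of variation 16.7%) than with control-siRNA (8.31%), a difference that was not tested. The mean fell to 37.3% of control-siRNA, with a log2 fold change of -1.42 (standard error 0.11, 95% interval -1.68 to -1.17, adjusted p = 1.05e-04 by edgeR). Without TAZ-siRNA replicate 3, which had the lowest CCN1 of all libraries, it was -1.30. Even so, CCN1 remained abundant, with a TPM rank of 187 to 300.

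CCN2 (NCBI gene 1490), known as a mediator of matrix deposition in fibrosis, lies on chromosome 6 from 131948176 to 131951372. Its levels were 890, 795 and 715 CPM with control-siRNA and 420, 391 and 375 CPM with TAZ-siRNA. Here too the groups were separate, with all knockdown values under the lowest control value. The mean fell to 49.4% of control-siRNA, a log2 fold change of -1.02 (standard error 0.083, 95% interval -1.20 to -0.83, adjusted p = 7.0e-05 by edgeR), and it was -0.98 without TAZ-siRNA replicate 3. For ANKRD1, CCN1, CCN2 and CCN3 alike, the exact permutation p was 0.1 (2-sided), the smallest that 3 libraries against 3 can give.

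The measured falls of these 3 genes differed in size, though this design is too small for a difference to pass an exact test. This was measured as the ratio of their counts within each library, which does not depend on how libraries are scaled. The log2 ratio of ANKRD1 to CCN1 was between -3.18 and -3.15 in the control-siRNA libraries and between -4.76 and -4.58 in the TAZ-siRNA libraries. The difference of the means was -1.50 (SD 0.0134 with control-siRNA and 0.0864 with TAZ-siRNA), so that ANKRD1 fell 2.83-fold further than CCN1 did. Against CCN2 the difference was -1.92 (SD 0.0331 with control-siRNA and 0.138 with TAZ-siRNA). The log2 ratio of CCN1 to CCN2 was 0.83 ± 0.0465 in the control group (SD, n = 3) against 0.41 ± 0.222 after TAZ-siRNA (SD, n = 3), a difference of -0.42. That difference follows from those of the other pairs, so the 3 pairs are not separate results. In each of the 3 pairs the groups did not overlap, and the exact permutation p was 0.1 (2-sided), with 0.1 also after adjustment over the 3 pairs, which is as low as this design can go. In the control-siRNA libraries these ratios varied far less than the levels of the genes, since replicate 1 had the highest and replicate 3 the lowest CPM of all 3 genes. This did not hold for CCN1 to CCN2 with TAZ-siRNA, where replicate 2 had the highest CCN1 and replicate 1 the highest CCN2.

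**Figure D3:**
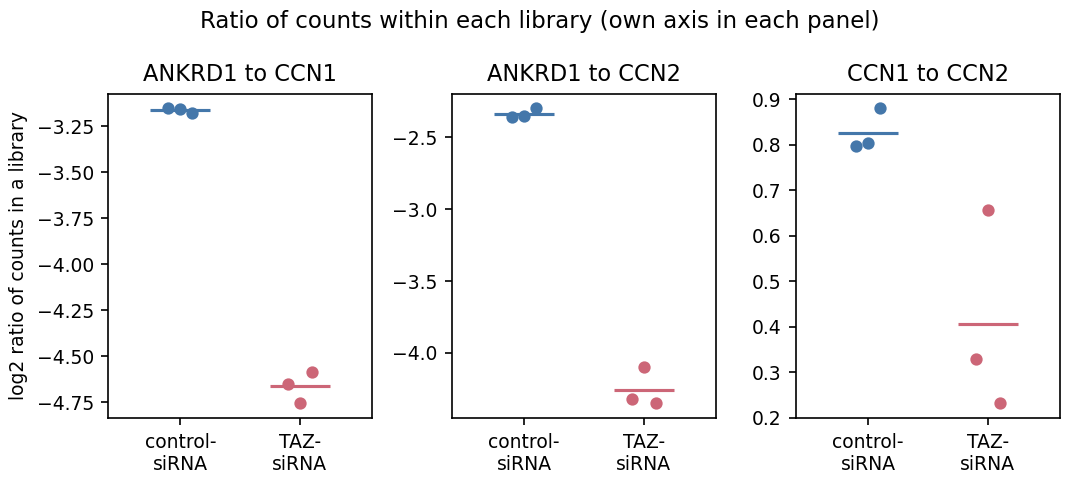
Log2 ratio of the counts of 2 genes within a library for the 3 pairs named above each panel, with 1 point per library, a line at the mean of each group and an axis of its own in each panel. All TAZ-siRNA points lie below all control-siRNA points in each panel, and the gap is widest for ANKRD1 to CCN2.

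CCN3 (NCBI gene 4856, also called NOV), a family member often described as acting against CCN2 in fibrosis, lies on chromosome 8 from 119416446 to 119424434. It moved in the opposite direction to CCN1 and CCN2. Its levels were 15.2, 15.3 and 16.5 CPM with control-siRNA and 24.2, 23.1 and 22.7 CPM with TAZ-siRNA, so that all TAZ-siRNA libraries were above all control-siRNA libraries. The log2 fold change was 0.58 (standard error 0.065, 95% interval 0.44 to 0.72, adjusted p = 3.1e-04 by edgeR), which is a rise to 149% of control-siRNA. Without TAZ-siRNA replicate 3 it was 0.60. Of the 13591 genes averaging at least 1 CPM, CCN3 ranked 417 by the size of its rise. Among markers of fibroblasts, a cell type that expresses CCN genes, the summed level was 20.3 to 22.2 CPM in the control-siRNA libraries and 28.0 to 28.7 CPM in the TAZ-siRNA libraries. Of 7 such markers 3 were tested, COL1A1 and PDGFRB rose (log2 fold change 0.42 and 0.44, adjusted p = 0.007 and 0.0049 by edgeR; 11.9% of all genes tested rose), and DCN was at 0. COL1A2, LUM and COL3A1 had at most 2, 4 and 10 counts in any library and did not pass the filter. The part of the fibroblast markers in the rise of CCN3 was not tested.

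CCN4 and CCN5 (also called WISP1 and WISP2), known as targets of Wnt signaling, were at the edge of detection. CCN5 (NCBI gene 8839, chromosome 20, 44714204 to 44728041), which lacks the carboxy-terminal module of its relatives, had 39, 55 and 34 counts with control-siRNA and 47, 20 and 17 with TAZ-siRNA. In CPM these are 0.585, 0.884 and 0.70 against 0.645, 0.406 and 0.304, and TAZ-siRNA replicate 1 lay within the control-siRNA range. The log2 fold change was -0.65 with a 95% interval of -1.35 to 0.051 (adjusted p = 0.17 by edgeR), which leaves room for a fall to 0.392 of the control level as well as for no fall. It was -0.43 without TAZ-siRNA replicate 3 and -1.03 without TAZ-siRNA replicate 1. An antisense gene with at most 13 counts, KCNK15-AS1, overlaps CCN5, and use of strand information in counting is not given in the sources used here.

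CCN4 (NCBI gene 8840, chromosome 8, 133190907 to 133231690) had 11, 8 and 8 counts with control-siRNA and 16, 9 and 18 with TAZ-siRNA. It passed the filter on low counts only through the TAZ-siRNA libraries, of which 3 of 3 were past 0.168 CPM, against 0 of the control-siRNA libraries. Its log2 fold change was 0.66 with a 95% interval of -0.24 to 1.56 (adjusted p = 0.277 by edgeR), and it was 0.41 without TAZ-siRNA replicate 3. Of its 70 counts, 69 were assigned to 1 of 8 listed transcripts, a predicted one, and the division between transcripts is an estimate. In CCN5, 175 of 212 counts were assigned to 1 of 5 transcripts. CCN1, CCN2, CCN3 and ANKRD1 each had 1 listed transcript, so that no division was needed.

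CCN6 (NCBI gene 8838, also called WISP3), which lies on chromosome 6 from 112052813 to 112069686, had 0 counts in all 6 libraries and in each of its 8 listed transcripts. A count of 0 allows up to 3 counts, which is 0.0411 to 0.0618 CPM depending on the library and covers counting error only. Its neighbour TUBE1, whose near end is 977 bases away, was at 58.5 CPM with control-siRNA (log2 fold change -0.34, adjusted p = 0.065 by edgeR).

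Summed over the family, CCN mRNA was 2347, 2104 and 1881 TPM in the control-siRNA libraries and 981, 1032 and 777 TPM in the TAZ-siRNA libraries, a fall to 44.1% of control-siRNA. CCN1 and CCN2 together made up 99.2 to 99.4% of it before and 97.4 to 97.8% after knockdown. The share of CCN3 was 0.659 ± 0.087% in the control group (SD, n = 3) against 2.32 ± 0.223% after TAZ-siRNA (SD, n = 3), with no overlap between the groups. The TPM of CCN2 was 45.7 to 61.8 times that of CCN3 in the control-siRNA libraries and 17.4 to 18.3 times in the TAZ-siRNA libraries. The family thus stayed dominated by CCN1 and CCN2 in every library.

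Among 19 other genes commonly used as YAP/TAZ targets, all tested, 7 fell and 0 rose by edgeR at an adjusted p under 0.05. The 7 are 36.8% of the list, beside 10.2% of all genes tested, and the median log2 fold change of the list was -0.12, beside -0.0054. With all libraries, no member was higher at an unadjusted p under 0.05 by edgeR, DESeq2 or limma (0 genes with each). Without TAZ-siRNA replicate 3, 7 fell and 1, DOCK5, rose (log2 fold change 0.24, adjusted p = 0.0047 by edgeR), in a fit where 16.1% of all genes tested fell and 17.6% rose. The falls were those of TGFB2, a ligand of the TGF-β family (log2 fold change -1.35), F3, which encodes tissue factor (-0.99), the kinase gene NUAK2 (-0.95), CRIM1 (-0.76), AMOTL2, an angiomotin that binds YAP and TAZ (-0.75), ASAP1 (-0.36) and AXL, a receptor tyrosine kinase (-0.35). With all libraries these changes were smaller than that of CCN1, but without TAZ-siRNA replicate 3 TGFB2 (-1.32) was level with CCN1 (-1.30) and F3 (-1.13) was past CCN2 (-0.98), and these differences in size were not tested. The other 12 genes did not pass the test with all libraries. NT5E, which encodes the ectonucleotidase CD73, was at 871 ± 8.47 CPM in the control group (SD, n = 3) against 897 ± 17.9 CPM after TAZ-siRNA (SD, n = 3) and did not pass the test (log2 fold change 0.04, adjusted p = 0.623 by edgeR). MYOF and LATS2, a Hippo kinase gene, had log2 fold changes of -0.12 and 0.02.

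**Figure D4:**
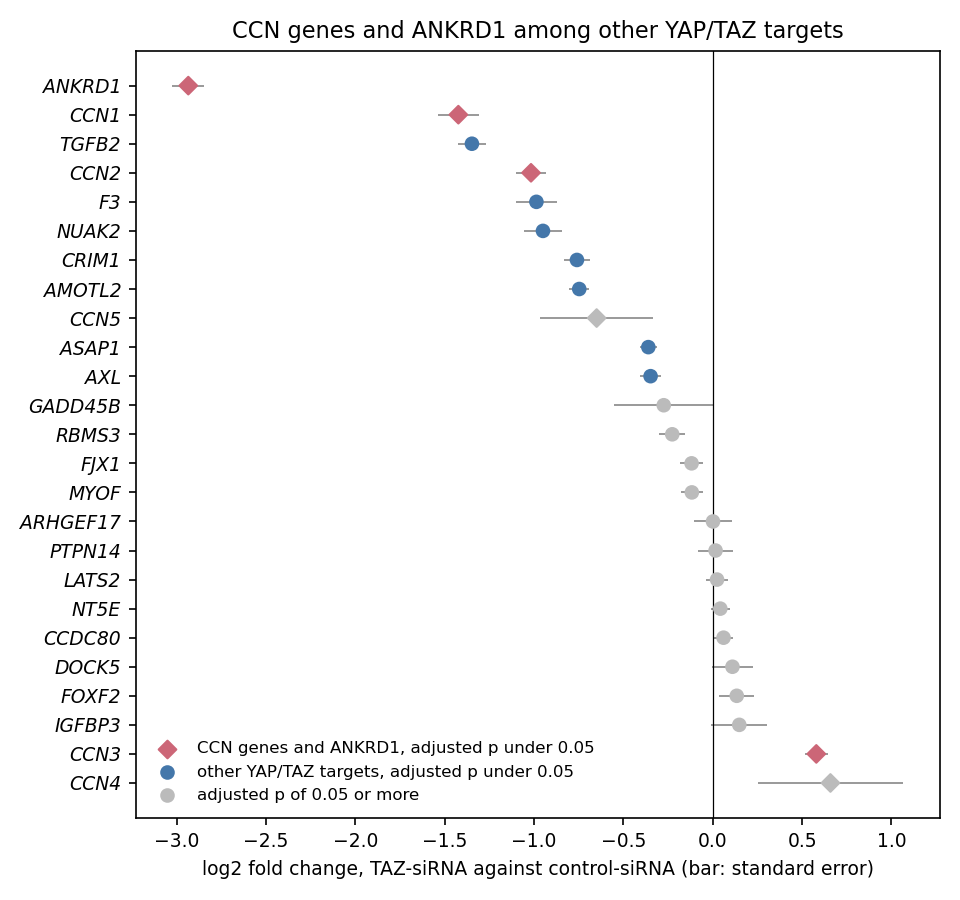
Log2 fold change with its standard error for the CCN genes tested and ANKRD1 (diamonds) and for 19 other YAP/TAZ targets (circles), in order of size. With all libraries, as drawn, ANKRD1, CCN1, TGFB2 and CCN2 have the lowest values, at the top, and grey marks stand for an adjusted p of 0.05 or more.

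The factors that act on these genes moved as follows. YAP1 mRNA was 149 ± 8.79 CPM in the control group (SD, n = 3) against 150 ± 6.32 CPM after TAZ-siRNA (SD, n = 3) (log2 fold change 0.0034, adjusted p = 0.974 by edgeR). TEAD1, the TEAD gene with the highest TPM (64.5 with control-siRNA), fell (log2 fold change -0.27, adjusted p = 0.042 by edgeR), as did TEAD4 (-0.31, adjusted p = 0.0091), whereas TEAD2 (0.03) and TEAD3 (0.07) did not pass the test. Of the Vestigial-like cofactors of TEAD, VGLL4, a repressor of YAP and TAZ activity, rose (0.40, adjusted p = 9.3e-04 by edgeR) and VGLL3 fell (-0.58, adjusted p = 0.033). The calls of TEAD1 and VGLL3 were lost in several fits with 1 library left out. TEAD1 stayed called without TAZ-siRNA replicate 3, at -0.18 (adjusted p = 0.028 by edgeR). It did not pass without TAZ-siRNA replicate 1 or control-siRNA replicate 1 or 2 (-0.31, -0.22 and -0.26, adjusted p = 0.071, 0.162 and 0.141). Of all genes tested, 4.84 to 5.74% fell in these fits, beside 10.2% with all libraries. VGLL3 did not pass the test without any one of the TAZ-siRNA libraries or control-siRNA replicate 1 or 2. Its values there were -0.64 to -0.38, with adjusted p-values of 0.056 to 0.121.

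The receptors of CCN proteins that passed the test were all higher with TAZ-siRNA. Of 16 listed receptor genes 13 were tested, and 5 rose (38.5%, beside 11.9% of all genes tested) and 0 fell by edgeR, with 0 lower at an unadjusted p under 0.05 by edgeR, DESeq2 or limma. The rises were those of ITGA5 (log2 fold change 0.51, adjusted p = 2.4e-04), ITGA6 (0.40), ITGB5 (0.37), IGF2R (0.21) and ITGAV (0.20, adjusted p = 0.033), which encodes the integrin αv chain that pairs with several β chains to bind CCN1 and CCN2. ITGB1, the partner of ITGA5 and ITGA6, was at 1173 ± 43.5 and 1295 ± 23.6 CPM (SD, n = 3 for each) and did not pass the test (log2 fold change 0.14, adjusted p = 0.104 by edgeR). The proteoglycan gene SDC4 (-0.05) and the lipoprotein receptor genes LRP1 (0.11) and LRP6 (0.14) did not pass it either. The number of receptor genes that rose depended on the libraries, with 9 without TAZ-siRNA replicate 3 (ITGB1, ITGB3, LRP1 and LRP6 in addition, where 17.6% of all genes tested rose) and 3 without TAZ-siRNA replicate 1 or without any single control-siRNA replicate, where 6.39 to 7.40% of all genes tested rose. The calls of ITGAV and IGF2R were the ones lost there, with log2 fold changes of 0.16 to 0.24 and 0.20 to 0.22. IGF2R was also lost without TAZ-siRNA replicate 2 (0.17, adjusted p = 0.092 by edgeR), where 8.62% of all genes tested rose.

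Of 8 listed growth factors and matrix genes whose products bind CCN2, 5 were tested, 3 rose and 0 fell by edgeR, where 11.9% of all genes tested rose and 10.2% fell (0 lower at an unadjusted p under 0.05 by edgeR, DESeq2 or limma). These were VEGFA (log2 fold change 0.36), BMP4 (0.29) and TGFB1 (0.16, adjusted p = 0.03 by edgeR). FN1, which encodes fibronectin, was at 0.15 on the log2 scale (adjusted p = 0.086 by edgeR). The study listed FN1 mRNA as higher in these libraries, by a p-value it does not call adjusted, and reported more fibronectin protein by immunoblot. All 5 rose without TAZ-siRNA replicate 3, FN1 and HSPG2 included (adjusted p = 0.011 and 9.1e-05), in a fit where 17.6% of all genes tested rose. TGFB1 did not pass without any one of the other 5 libraries (log2 fold change 0.14 to 0.18, adjusted p = 0.061 to 0.143). BMP4 did not pass without control-siRNA replicate 1 or 2 (0.26 in both, adjusted p = 0.072 and 0.082). In these fits 6.39 to 8.62% of all genes tested rose.

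Of 7 listed relatives and partners of ANKRD1, 5 were tested, and MYPN and DES fell (40.0%, where 10.2% of all genes tested fell). MYPN encodes myopalladin, a sarcomere protein that binds ANKRD1, and its level was 1.15 ± 0.146 CPM in the control group (SD, n = 3) against 0.394 ± 0.0157 CPM after TAZ-siRNA (SD, n = 3) (log2 fold change -1.54, adjusted p = 0.0012 by edgeR). DES, which encodes the muscle filament protein desmin, went from 3.79 ± 0.389 to 2.24 ± 0.386 CPM (SD, n = 3 for each, log2 fold change -0.76, adjusted p = 0.0063 by edgeR). The list had 0 genes that rose, also at an unadjusted p under 0.05 by edgeR, DESeq2 or limma. The relative ANKRD23 was at 0.481 and 0.575 CPM (adjusted p = 0.555), and ANKRD2 did not pass the filter with at most 11 counts. YBX1, which encodes a cold shock domain protein, fell in addition without TAZ-siRNA replicate 3 (adjusted p = 0.0086 by edgeR). By TPM in the control-siRNA libraries, MYPN (0.405) and DES (3.67) were far below ANKRD1 (192). The summed level of 6 muscle markers was 3.82 to 4.84 CPM in control and 2.11 to 2.68 CPM in knockdown libraries. DES made up most of it, and MYH6, MYH7 and TNNT2 were at 0. ACTC1, a cardiac actin gene with at most 21 counts, was at -1.69 on the log2 scale (adjusted p = 0.08 by edgeR). It passed as lower without TAZ-siRNA replicate 3 (-2.25, adjusted p = 0.03 by edgeR). However, ACTC1 averaged 0.314 CPM with control-siRNA and 0.0903 CPM with TAZ-siRNA, where the filter was at 0.168 CPM. The filter thus kept it only through the control-siRNA libraries, and its values are given as a description.

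Genes next to the CCN genes and ANKRD1 were also compared. Within 250 kb of the 7 genes lay 73 others, of which 31 were tested, with 4 higher (12.9%, beside 11.9% of all genes tested), 6 lower (19.4%, beside 10.2%) and a median log2 fold change of -0.07, beside -0.0054. The 10 calls remained without TAZ-siRNA replicate 3, and TUBE1, RPP30, TOMM34 and PKIG passed as lower in addition, in a fit where 16.1% of all genes tested fell. Near CCN1, 3 of 5 genes tested fell and 1 rose. DDAH1, whose product degrades an inhibitor of nitric oxide synthase and whose near end is 2487 bases from CCN1, went from 280 to 213 CPM (log2 fold change -0.39, adjusted p = 9.7e-04 by edgeR). ZNHIT6 at 65.5 kb changed by -0.29 on the log2 scale (adjusted p = 0.0018) and LOC107985054 at 89.7 kb, which lies within the span of DDAH1 and may share reads with it, had -1.60 (adjusted p = 0.0029), while the collagen gene COL24A1 rose (0.84, adjusted p = 0.02). COL24A1 did not pass without TAZ-siRNA replicate 1 or 2 or control-siRNA replicate 1 or 2 (log2 fold change 0.65 to 0.84, adjusted p = 0.054 to 0.084). Near ANKRD1, 0 of 4 genes tested passed by edgeR and 1, RPP30, had an unadjusted p under 0.05 (log2 fold change -0.15, 3540 bases away), which DESeq2 called and limma did not. Near CCN6, 0 of 5 passed by edgeR and 1, TUBE1, had an unadjusted p under 0.05 and was called by DESeq2 but not by limma. Near CCN2, the gene ENPP1 at 53.0 kb rose (0.29, adjusted p = 0.008 by edgeR). Near CCN3, MAL2 rose (0.63, adjusted p = 4.7e-04), and near CCN4, ST3GAL1 did (0.37, adjusted p = 0.0014). Near CCN5, PABPC1L (-0.45), TTPAL (-0.33) and STK4 (-0.20), a Hippo kinase gene, fell, the largest adjusted p by edgeR being 0.014. STK4 did not pass without control-siRNA replicate 2 or 3 (log2 fold change -0.18 and -0.20, adjusted p = 0.084 and 0.055).

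**Figure D5:**
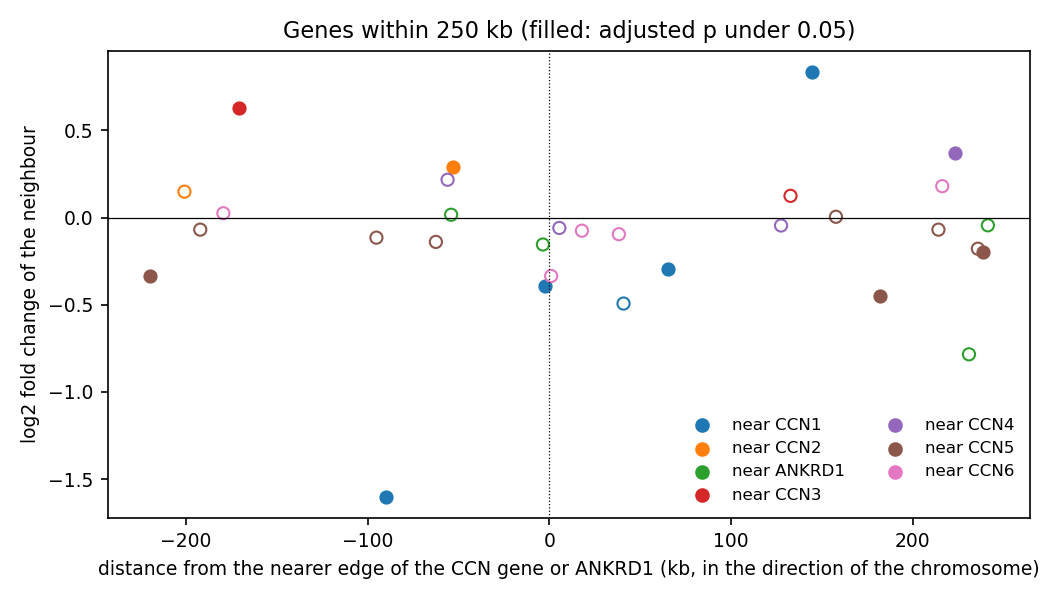
Log2 fold change of the 31 tested genes within 250 kb of a CCN gene or ANKRD1 against their distance in kb, with filled points for an adjusted p under 0.05 and colors for the gene they lie near. The lowest filled point, at -1.60, is LOC107985054 near CCN1, and the points near ANKRD1 are all open.

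The genes whose profiles over the 6 libraries were nearest to each of the 3 fallen genes were found by the Euclidean distance of log2 CPM from the control-siRNA mean, among 13591 genes. Nearest to CCN1 were CAVIN2, a caveola coat gene (distance 0.188), ADAMTS6 (0.203), EDN1, which encodes the vasoconstrictor endothelin-1 (0.351), LOC107985054 (0.39) and TGFB2 (0.405). Nearest to CCN2 were BIRC3, an inhibitor of apoptosis gene (0.0993), SNAPC1 (0.20), PAWR (0.235), PHLDB2 (0.328) and NUAK2 (0.341). ANKRD1 had no near match of this kind, since its closest gene, the lncRNA gene SFTA1P, was at a distance of 0.80, followed by KRTAP2-3 (0.856), WWTR1 (1.04), CLDN1 (1.80) and HIF1A-AS3 (1.99). A distance mostly reflects the size of the difference between the groups, and it is given as a description.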

How the data were processed

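RNA of 3 control-siRNA and 3 TAZ-siRNA preparations was sequenced from stranded mRNA libraries as paired ends. According to their methods, the authors aligned trimmed reads by HISAT2 (genome GRCh38) and used StringTie with a reference gene model. The submitters' processing notes also name Bowtie 0.12.2 and the mouse build mm8, with no role given. Of the 7 genes, 5 had deposited spans equal to those of RefSeq on GRCh38.p14. The deposited estimated counts are whole numbers and were used as they stand. The deposited FPKM and TPM are the authors' values, corrected for length and depth.

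Counts were compared with edgeR 4.0.16 (R 4.3.3; TMM factors, filterByExpr with a minimum count of 10, robust quasi-likelihood test, Benjamini-Hochberg adjustment over 16966 genes). Intervals are 95% intervals from the same fit. Neighbours were genes within 250 kb. For nearest profiles, 0.5 CPM was added before the log2 and a mean of at least 1 CPM was required. Exact permutation tests used scipy 1.17.1. Named were the 7 genes, WWTR1, list members and neighbours past an adjusted p of 0.05, and the 5 nearest profiles. Further list members, TUBE1, RPP30, TOMM34 and PKIG were named after their values were seen. The genes and lists were chosen with earlier results of these data known. Replicates carry the numbers of the value columns, 1 to 3. Alternatives were DESeq2 1.42.0, upper-quartile factors, other filters, a replicate block, limma 3.58.1 on log2 FPKM, a stricter threshold and leaving out each library.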

Additional observations from a re-analysis of the deposited data

How the results depend on the processing

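The directions and calls of CCN1, CCN2, CCN3 and ANKRD1 were the same under all 13 alternatives computed for each, and CCN4 (12 alternatives) and CCN5 (13) passed the threshold under none, with adjusted p-values of 0.278 to 0.616 and 0.0807 to 0.432. DESeq2 gave CCN4 and CCN5 no adjusted p. When single libraries were left out, the log2 fold change was -3.00 to -2.85 for ANKRD1, -1.54 to -1.30 for CCN1, -1.09 to -0.93 for CCN2, 0.56 to 0.62 for CCN3, 0.41 to 0.81 for CCN4 and -1.03 to -0.43 for CCN5. The number of the 7 genes called stayed at 4 and that of other YAP/TAZ targets at 7 or 8, all lower except 1 of the 8 without TAZ-siRNA replicate 3 (DOCK5, higher). The number called over all genes was 1720 at an adjusted p of 0.01, and between 1937 (control-siRNA replicate 2 left out) and 5928 (TAZ-siRNA replicate 3 left out). It was 2262 and 2115 without control-siRNA replicates 1 and 3 and 2046 without TAZ-siRNA replicate 1. That of CCN receptors was 3 with limma on log2(FPKM + 1), with limma on log2(FPKM + 0.1) and at an adjusted p of 0.01, and 3 to 9 with each library left out. The cause was not tested. At the main settings these counts were 3749 and 5. CCN6 had no value under any alternative, and CCN4 had none with at least 10 counts in every library. The ratio differences kept their direction in 8 alternatives each. On the log2(FPKM + 1) scale the values of CCN4 and CCN5 shrank to 0.02 and -0.17, as a pseudocount of 1 outweighs levels this low.

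The replicate numbers are not stated to pair the samples. By deviations from the group means, r was 0.0679, 0.0504 and 0.284 over 13591 genes for same-numbered libraries and -0.232 to 0.184 for the other 6 pairs. The highest value of all was that of the libraries numbered 3, so these values give a mixed picture. Whether same-numbered libraries share a batch was not tested. Control-siRNA replicate 2 went with TAZ-siRNA replicate 1 (0.184) more than with its own number. The replicate block changed no call of the 7 genes, with 4 of the 7 genes, 5122 of all genes, 8 YAP/TAZ targets and 7 receptors called, and log2 fold changes of -2.94 for ANKRD1, -1.43 for CCN1, -1.01 for CCN2 and 0.58 for CCN3. The blocked ratio differences were -1.50, -1.92 and -0.42, the same as without the block, since a mean of paired differences equals the difference of the means. CCN4 and CCN5 had 70 and 212 counts over 6 libraries and CCN6 had none, and whether depth limits their results was not tested.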
